A study of Mus musculus with 21 samples.

Results

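The genes that build fatty acids and store them as triglyceride were followed in mouse liver after a single dose of SPC3372, a locked nucleic acid oligonucleotide directed against microRNA-122. The group held 30 genes, listed by name for their roles in making fatty acids and triglycerides, out of 18193 genes measured. Each gene stands for its brightest probe set among those with a single platform gene symbol, and all 30 had one. On day 3, the day after dosing, 2 of the 30 passed the test as lower in treated liver, the transcription factor gene Srebf1 and the small regulator Mid1ip1. On day 9 only Acacb passed, also lower, and on day 23 none did. In saline mice alone, 8 of the 30 passed between days 3 and 9, 7 of them lower on day 9. Of all genes 1.88%, 0.896% and 0.198% passed as lower in treated liver on days 3, 9 and 23. Between the saline mice 3.12% passed as lower and 2.76% as higher on day 9.

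All animals were female NMRI mice, an outbred stock whose individuals are not genetically identical. Treated mice received 25 mg per kg of SPC3372 on day 2 and control mice received saline on that day. Livers were taken on days 3, 9 and 23, with 3 treated and 3 saline mice at each day, and no genotype or age is given in the labels. RNA was measured on Affymetrix mouse arrays in sets named p0617 (15 arrays: days 3 and 9, and the treated mice of day 23) and p0621 (6 arrays: treated and saline mice of day 23). The 3 treated mice of day 23, numbered 36, 37 and 38, were measured in both sets, and their p0621 arrays were used, so each tested difference between groups is taken within a set. Levels of day 23 set beside those of days 3 and 9 are across sets. Levels are deposited log2 values, on which a step of 1 is a 2-fold change. Replicate numbers only name mice within a group.

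Cytosolic acetyl-CoA, drawn from citrate by ATP citrate lyase or made from acetate, is carboxylated to malonyl-CoA and built into palmitate by fatty acid synthase. Elongases and desaturases then lengthen and unsaturate the chain, and acyltransferases join chains to glycerol phosphate to give phosphatidic acid, diglyceride and triglyceride, which is stored in lipid droplets or exported. In liver this program is known to be switched on by feeding, with insulin acting largely through SREBP1c, a product of Srebf1, and sugars through ChREBP, the product of Mlxipl. MicroRNA-122 is the most abundant microRNA of hepatocytes.

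The samples carried the defining markers of hepatocytes. Of 9 hepatocyte markers 8 were measured and lay at a mean log2 level of 13.41 to 13.81 on every array, with albumin at 14.77 to 14.93. Of 8 fat cell markers 6 were measured, at a mean of 4.33 to 4.65. Adipoq and Lep, the defining hormones of fat cells, averaged 3 and 3.28, under the median of all probe sets (4.79). Of the 6 fat cell markers 2 lay above that median, Fabp4 at 8.04 and Retn at 4.85. Of the 30 genes 29 lay above that median, the exception being Cidec at 3.69. Different mice of a group correlated at 0.9921 to 0.9959 over all genes, and with so few arrays each value below has limited precision. In the 30 genes some mice stood apart from their group: treated replicate 3 and saline replicate 2 of day 3 and saline replicate 3 of day 23 were the highest in most of them, and values without these mice are given beside the results.

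Sequences upstream of 4 genes are shown. Srebf1, Mid1ip1 and Acacb passed in a comparison of treated with saline mice. Pnpla3 had the lowest difference of all genes in saline mice of day 9 against day 3. Other genes that passed in saline mice are not printed. Each sequence is the 250 bases before a RefSeq transcription start (GRCm38.p6), written 5′ to 3′ on the gene's own strand. Capitals mark matches to a sterol regulatory element (TCACNCCAC), an E-box (CACGTG) or the letters of a CCAAT box. They also mark a GC box (GGGCGG). All were searched on both strands, so a match can read as the reverse complement of these letters. Matches may overlap. Of the windows listed for Srebf1 the one with the most matches is printed.
Srebf1, chr11:60210472-60210721, minus strand: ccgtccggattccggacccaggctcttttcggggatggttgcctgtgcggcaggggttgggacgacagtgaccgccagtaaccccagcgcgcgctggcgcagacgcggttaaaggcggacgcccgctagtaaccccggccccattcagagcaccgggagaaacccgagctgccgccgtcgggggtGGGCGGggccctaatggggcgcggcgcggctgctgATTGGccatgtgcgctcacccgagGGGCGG
Mid1ip1, chrX:10717115-10717364, plus strand: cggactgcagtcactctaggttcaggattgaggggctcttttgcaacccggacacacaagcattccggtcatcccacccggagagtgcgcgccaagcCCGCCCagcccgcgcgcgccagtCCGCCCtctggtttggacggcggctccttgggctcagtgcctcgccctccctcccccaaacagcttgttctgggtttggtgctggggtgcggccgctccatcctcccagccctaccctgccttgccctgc
Acacb, chr5:114165268-114165517, plus strand: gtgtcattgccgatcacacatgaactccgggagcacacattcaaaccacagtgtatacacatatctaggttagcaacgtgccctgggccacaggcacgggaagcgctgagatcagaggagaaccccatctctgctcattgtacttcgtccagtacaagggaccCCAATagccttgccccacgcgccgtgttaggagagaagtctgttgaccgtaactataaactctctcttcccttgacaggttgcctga
Pnpla3, chr15:84167566-84167815, plus strand: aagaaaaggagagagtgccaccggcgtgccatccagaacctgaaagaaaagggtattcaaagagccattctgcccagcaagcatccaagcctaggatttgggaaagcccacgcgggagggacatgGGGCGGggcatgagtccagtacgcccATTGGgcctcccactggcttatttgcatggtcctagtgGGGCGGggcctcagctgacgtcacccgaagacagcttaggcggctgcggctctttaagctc
The Srebf1 and Pnpla3 windows each hold a CCAAT box and 2 GC boxes, the Mid1ip1 window 2 GC boxes and the Acacb window a single CCAAT box. Over the 34 windows found for 25 of the 30 genes, the sterol regulatory element was matched in 1, upstream of Mlxipl, against 1.05% of all 32851 windows. E-boxes lay in 5 windows (6.02% of all), CCAAT boxes in 16 (33.8% of all) and GC boxes in 16 (32.7% of all). A match is a string of letters and no measure of binding.

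On day 3 the comparison asks what had changed in treated liver the day after the dose. In that comparison 2 of 30 genes were lower and 0 were higher by limma with Benjamini-Hochberg adjustment over all genes, where 1.88% of all genes were called lower and 2.63% higher. In RNA of whole liver, fewer cells of a type and less RNA per cell cannot be told apart. Of the 30, 24 lay below zero, with a median of -0.23 against 0.012 for all genes, and 6 were lower (9.1% of all genes) and 0 higher (9.19%) at an unadjusted p under 0.05. In 3 genes, Srebf1, Mid1ip1 and Agpat2, the treated mice lay wholly below the saline mice (10.4% of all genes did), and in 0 wholly above (11.1%).

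Srebf1 encodes the SREBP1 transcription factors, which drive most of the lipogenic enzymes. It stood at 11.28, 10.82 and 11.42 in the treated mice of day 3 and at 11.95, 12.07 and 11.96 in the saline mice. All treated mice lay under all saline mice, and the saline mice were close together. The gene fell 1.76-fold (log2 -0.82, SE 0.15, adjusted p = 0.00395). Mlxipl, the carbohydrate response factor, was at 11.09 ± 0.10 in treated mice against 11.17 ± 0.22 in saline mice (SD, n = 3 each), a difference of -0.08.

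Mid1ip1 encodes a protein that helps acetyl-CoA carboxylase polymerise and so become active. Its values were 9.94, 9.51 and 10.11 in treated mice against 10.63, 10.91 and 10.45 in saline mice, again without overlap. It fell 1.75-fold (log2 -0.81, SE 0.17, adjusted p = 0.0102). Thrsp, its relative, also known as Spot 14, showed the same size of difference, -0.81, but with a wider spread (SE 0.34, adjusted p = 0.2). Its treated mice stood at 11.93, 11.5 and 13.21 against 13, 13.22 and 12.84 in saline mice, so that treated replicate 3 was as high as the highest saline mouse.

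Among the enzymes that build the chain, mice of a group lay farther apart. Fasn, fatty acid synthase, was at 11.44, 10.78 and 12.93 in treated mice against 12.23, 12.86 and 11.96 in saline mice, a difference of -0.64 (SE 0.40). Treated replicates 1 and 2 lay under every saline mouse and treated replicate 3 above every one. Acaca and Acacb, the cytosolic and the mitochondrial acetyl-CoA carboxylase, differed by -0.23 (SE 0.25) and -0.69 (SE 0.41). None of the 3 enzymes passed, with adjusted p from 0.406 to 0.69.

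The genes supplying carbon and reducing power all lay lower, and none passed. Acss2, which activates acetate, was at 10.46, 10.39 and 12.27 in treated mice against 11.74, 11.91 and 11.45 in saline mice (difference -0.66, SE 0.45). Me1, the malic enzyme that yields NADPH, differed by -0.69 (SE 0.34) and Acly, ATP citrate lyase, by -0.34 (SE 0.31). The citrate carrier Slc25a1 and liver pyruvate kinase Pklr differed by -0.24 and -0.14.

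Among the elongases and desaturases 0 of 6 genes passed and the median difference was -0.03. Elovl6, which extends palmitate, differed by -0.41 (SE 0.36), and Scd1, the main liver desaturase, by -0.23 (SE 0.56). Elovl5, Fads1 and Fads2, the enzymes of polyunsaturated chains, lay between -0.04 and 0.03, with SE from 0.13 to 0.16. Scd2, a desaturase that is dim in this liver, differed by 0.18 (SE 0.16).

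In triglyceride assembly Agpat2, which makes phosphatidic acid, came closest to the threshold. It stood at 11.1, 11.13 and 11.35 in treated mice against 11.6, 11.54 and 11.64 in saline mice, a gap in every mouse but a small one (log2 -0.40, SE 0.12, adjusted p = 0.0624). Lpin1, a phosphatidate phosphatase, differed by -0.73 (SE 0.33), at 7.96, 8.05 and 9.29 against 8.68, 9.97 and 8.86. The acyltransferases Gpam, Mogat1, Dgat1 and Dgat2 and the second lipin, Lpin2, lay between -0.19 and 0.18 without passing.

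Among droplet proteins and lipases the largest difference of the 30 genes on day 3 was that of Pnpla3, a lipid droplet hydrolase whose expression is known to follow SREBP1c. It was at 6.79, 6.87 and 8.95 in treated mice against 8.14, 10.21 and 9.41 in saline mice. The difference of -1.72 (SE 0.69) was the fifth lowest of all 18193 genes, and its adjusted p was 0.184. The mice of either group spread over a wider range than that difference. Pnpla5 differed by -0.29 (SE 0.36). Pnpla2 (adipose triglyceride lipase), Plin2 (perilipin 2, the main coat protein of liver droplets) and Cidec (a droplet fusion protein) lay between -0.09 and 0.14.

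The treated mice of day 3 were not alike. Against the saline mean, the median over the 30 genes was -0.28, -0.62 and 0.18 in treated replicates 1, 2 and 3, with 25, 24 and 7 genes below the saline mean. Treated replicate 3 was the highest of its group in 26 of the 30 genes, while it was highest in 35.3% of all genes. Among the saline mice replicate 2 was the highest in 23 of the 30 (35.1% of all genes). Without treated replicate 3, 6 genes passed, all lower, namely Srebf1, Mid1ip1, Thrsp, Fasn, Agpat2 and Lpin1, and the median became -0.48. Of all 18193 genes 876 passed in that setting, against 821 with every mouse. Mid1ip1 did not pass when treated replicate 2 (adjusted p = 0.0533) or saline replicate 2 (adjusted p = 0.0596) was left out. In either case 1 of the 30 genes was left (634 and 508 of all genes), and the median of the 30 became -0.07 and -0.12.

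**Figure D1:**
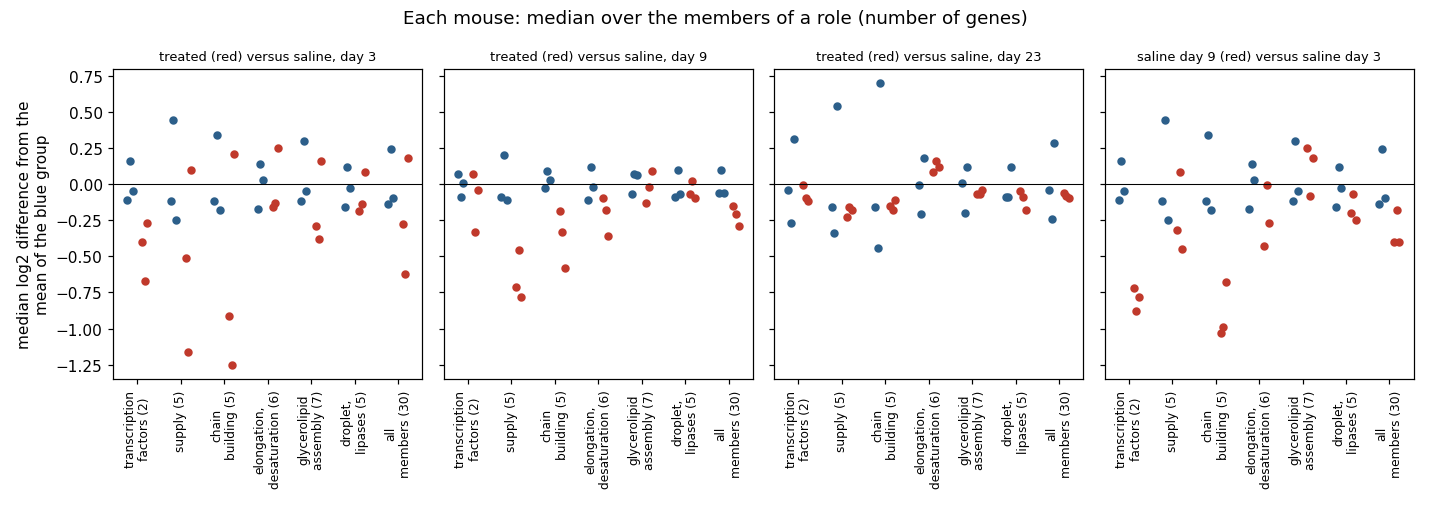
Each point is a mouse and shows the median log2 difference, over the genes of a role, from the mean of the blue group; columns are the 6 roles and all 30 genes. Red points are the treated mice in the first 3 panels and the saline mice of day 9 in the last. On day 3 the treated mice spread from -0.62 to 0.18 over the 30 genes, and chain building lay from -1.03 to -0.68 in the saline mice of day 9.

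Markers of other liver cells also passed on day 3. Among 9 markers of macrophages, Kupffer cells included, 6 rose and 0 fell, with a median of 0.832, led by Marco (log2 1.98), Clec4f (1.04) and Cd68 (1.03). The log2 of their summed level was 12.91 to 13.53 in treated and 12.13 to 12.93 in saline mice. Of 8 lymphocyte markers measured Gzma and Gzmb rose, with a summed level of 8.76 to 9.29 against 8.18 to 8.45. Of 5 cholangiocyte markers measured 1 rose and 0 fell, with a median of 0.15. Of 8 hepatocyte markers 0 passed the limma test, and 0 had an unadjusted p under 0.05, with a median of 0.018 and a summed level of 16.94 to 16.95 against 16.88 to 16.97. As a sign of RNA integrity, the 3′ probe set of beta-actin stood above its 5′ probe set by 1.03 ± 0.02 (log2, SD, n = 3) on treated arrays and by 0.80 ± 0.05 on saline arrays. The same gap for Gapdh was 0.12 ± 0.18 on treated and 0.07 ± 0.19 on saline arrays. The part of RNA integrity in the differences, and that of the other cells, was not tested.

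**Figure D2:**
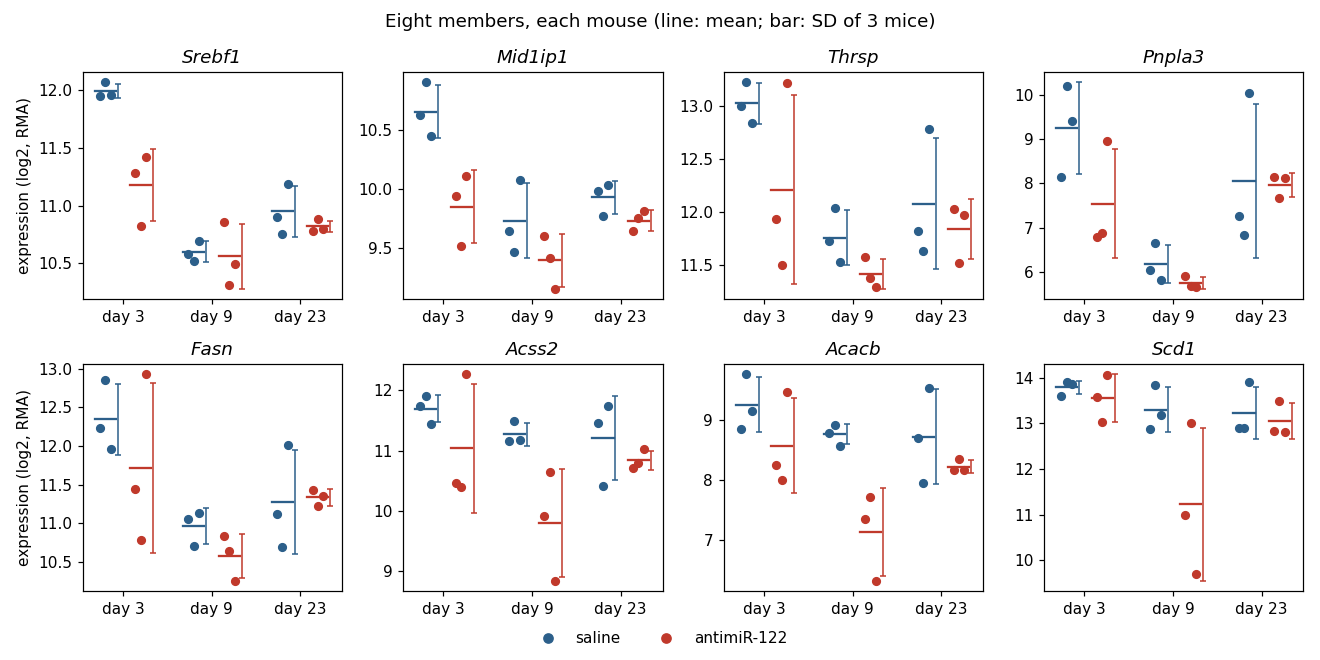
Level (log2, RMA) of 8 of the 30 genes in each of the 18 mice, by day; blue is saline, red is treated, the line is the mean and the bar is the SD of 3 mice, with an axis of its own for each gene. Srebf1 and Mid1ip1 show separate groups on day 3, and Scd1 and Acss2 show the wide scatter of treated mice on day 9.

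On day 9 the comparison asks the same of livers taken a week after the dose. Acacb was the only gene of the 30 called lower and 0 were called higher, where 0.896% and 1.91% of all genes were called. The median of the 30 was -0.253 against -0.02 for all genes, 22 lay below zero, and 6 were lower (8.16% of all genes) and 1 higher (8.62%) at an unadjusted p under 0.05. In 10 genes the treated mice lay wholly below the saline mice (11.2% of all genes), namely Pklr, Acly, Acss2, Me1, Acaca, Acacb, Elovl6, Fads1, Gpam and Lpin1. In 3 they lay wholly above (10.4%), namely Scd2, Fads2 and Lpin2.

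Acacb makes the malonyl-CoA that restrains the entry of fatty acids into mitochondria. It stood at 7.35, 7.73 and 6.33 in treated mice against 8.79, 8.93 and 8.58 in saline mice, with every treated mouse lower and treated replicate 3 lowest. It fell 3.10-fold (log2 -1.63, SE 0.41, adjusted p = 0.0383). The call ended without any single array other than treated replicate 2, with adjusted p = 0.0775 and 0.175 without treated replicates 1 and 3 and 0.0993, 0.103 and 0.0818 without saline replicates 1, 2 and 3. It also ended in a fit with the replicate block (adjusted p = 0.0589), and the mean of the gene's probe sets gave -0.90 (adjusted p = 0.0386). Acaca, its cytosolic counterpart, differed by -0.23 (SE 0.25).

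Scd1, the desaturase that makes oleate from stearate, had the largest difference of the 30 on day 9. Its treated values were 10.99, 13.02 and 9.69 against 12.87, 13.84 and 13.18, so that treated replicate 2 lay inside the saline range and the others well under it. The difference was -2.07 (SE 0.56, adjusted p = 0.056), the fourth lowest of all genes. Without treated replicate 2 it was -2.96 (adjusted p = 0.00205) and without treated replicate 3 it was -1.29 (adjusted p = 0.221). Without treated replicate 2, 3 of the 30 genes passed, Acacb, Acss2 and Scd1, and 390 of all genes in place of 511.

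The genes of carbon supply lay under the saline mean in every treated mouse of day 9, and none passed. Acss2 was at 9.92, 10.64 and 8.84 in treated mice against 11.16, 11.49 and 11.17 in saline mice, a difference of -1.47 (SE 0.45, adjusted p = 0.094). Acly was at 10.56, 10.49 and 9.82 against 11.18, 11.47 and 11.16, a difference of -0.98 (SE 0.31, adjusted p = 0.105). Both groups were separate in both genes. Me1, Pklr and Slc25a1 differed by -0.71, -0.40 and -0.28, but a nearly as bright probe set of Me1 (10.4 against 10.46) gave -0.02. Less bright probe sets of Pklr (8.93 and 8.07, against 9.26) gave -0.11 and -0.03. The median of the 5 supply genes against the saline mean was -0.71, -0.46 and -0.78 in treated replicates 1, 2 and 3. Over all 30 genes the 3 treated mice lay close, at -0.15, -0.21 and -0.29.

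Srebf1 and Mid1ip1, called on day 3, did not pass on day 9. Srebf1 was at 10.56 ± 0.28 in treated mice against 10.60 ± 0.09 in saline mice, a difference of -0.04 with a 95% interval from -0.36 to 0.28. Mid1ip1 differed by -0.34 (interval -0.70 to 0.02), Thrsp by -0.35, Fasn by -0.39 and Elovl6 by -0.37. In treated and in saline mice alike, the mean levels of these 5 genes on day 9 were the lowest of the 3 days, a ranking that sets the p0621 arrays of day 23 beside p0617 arrays and was not tested.

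The desaturases of polyunsaturated chains did not pass, and their probe sets gave unlike values. Fads1, the delta-5 desaturase, was at 11.74, 11.66 and 11.32 in treated mice against 12.12, 11.84 and 12.08 in saline mice (log2 -0.44, SE 0.13, adjusted p = 0.0726). Fads2, the delta-6 desaturase, was at 10.93, 11.13 and 10.78 against 10.25, 10.74 and 10.55 (log2 0.44, SE 0.16, adjusted p = 0.18). A less bright probe set of Fads2, at a level of 10.53, rose by 0.64 (adjusted p = 0.0482 over every probe set). A dimmer one (8.25) differed by 0.01. A dimmer probe set of Fads1 (6.99) differed by 0.32, and the mean of both Fads1 probe sets by -0.06 (adjusted p = 0.885).

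Of the 7 genes of triglyceride assembly and the 5 droplet and lipase genes 0 passed on day 9, with 1, Lpin1, lower at an unadjusted p under 0.05. Lpin1 was at 8.81, 8.88 and 8.75 in treated mice against 9.70, 9.39 and 9.67 in saline mice. These tight and separate groups had a difference of -0.78 (SE 0.33, adjusted p = 0.236). A less bright Lpin1 probe set (8.18 against 9.08) differed by -0.33, and the mean of both by -0.55 (adjusted p = 0.318). Lpin2 was at 10.15, 10.18 and 10.16 against 9.74, 10.02 and 10.11. Gpam differed by -0.28, and Agpat2, Mogat1, Dgat1 and Dgat2 lay between -0.07 and 0.19. The droplet genes and lipases had a median difference of -0.09, with Pnpla3 at -0.42 (SE 0.69), Pnpla2 at -0.12, Pnpla5 at -0.09, Plin2 at 0.18 and Cidec at 0.10.

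Genes of feeding state and the clock also differed between the groups of day 9. Pck1, a gluconeogenic enzyme induced by fasting, was higher in treated liver on days 3 and 9 (log2 0.76 and 0.74, adjusted p = 0.00408 and 0.0101). It was the only gene of 12 measured in the fasting list that passed on either day. On day 9, 10 of the 12 lay above zero, with a median of 0.382 and 4 higher and 0 lower at an unadjusted p under 0.05, and on day 3, 9 of the 12 with a median of 0.118. Of 17 clock genes Arntl fell (log2 -1.25) and Per2 rose (log2 1.05, adjusted p = 0.0493) on day 9, and Nr1d2 rose on day 3 (log2 0.90, adjusted p = 0.0496). Stellate cell markers Dcn, Hand2 and Reln rose on day 9, 3 of 8, and of 8 hepatocyte markers Apob rose. The beta-actin gap between 3′ and 5′ probe sets was 1.14 ± 0.02 on treated and 0.93 ± 0.06 on saline arrays. The Gapdh gap went the other way, at -0.06 ± 0.04 on treated and 0.15 ± 0.16 on saline arrays. The part of these in the lipogenic values was not tested.

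On day 23 none of the 30 genes passed, where 0.198% of all genes were called lower and 0.187% higher. At an unadjusted p under 0.05, 0 were lower (7.99% of all genes) and 1 was higher (5.88%) by limma, Fads2. The median was -0.104 against -0.02 for all genes. Me1, Dgat1 and Pnpla2 lay wholly below the saline mice (11.1% of all genes did) and Scd2 and Fads2 wholly above (8.12%). Fads2 was at 10.69, 11.02 and 11.11 in treated mice against 10.59, 10.67 and 10.50 in saline mice, a difference of 0.36 (SE 0.16, adjusted p = 0.344). Scd2 was at 6.12, 6.20 and 5.95 against 5.78, 5.67 and 5.80, a difference of 0.34 (SE 0.16). Its other probe sets (4.62 and 3.22) lay under the median of all probe sets. They differed by -0.028 and -0.055 on day 23, and by -0.094 and 0.078 on day 9.

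Me1 was the lowest of the 30 on day 23 by its difference, -0.61 (SE 0.34, adjusted p = 0.446), with treated mice at 9.88, 10.09 and 10.14 and saline mice at 10.35, 10.16 and 11.41. Saline replicate 3 was the highest of these mice, and without it Me1 differed by -0.22 and Lpin1 by -0.40. The other probe set of Me1 gave -0.16 with all mice. Lpin1 differed by -0.58, Acacb by -0.50 and Acss2 by -0.37 with all mice, and Acacb and Acss2 by -0.10 each without that one. Srebf1 and Mid1ip1 differed by -0.13 (95% interval -0.45 to 0.19) and -0.20 (-0.56 to 0.17). Pnpla2 stood at 7.72, 7.60 and 7.60 against 7.78, 7.87 and 7.79, a small and even gap (log2 -0.17, SE 0.08, adjusted p = 0.368). The other 21 genes lay between -0.24 and 0.11.

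The scatter on day 23 lay among the saline mice. Saline replicate 3 was the highest of its group in 26 of the 30 genes (37.2% of all genes), and saline replicate 2 the lowest in 23 (35.1%). Pnpla3, for instance, was at 7.27, 6.84 and 10.04 in saline mice and at 8.14, 7.66 and 8.12 in treated mice. Fasn was at 11.12, 10.70 and 12.01 against 11.43, 11.22 and 11.36. Without saline replicate 3 the median of the 30 genes turned from -0.104 to 0.102. The p0617 arrays of the treated mice gave values of the 30 genes that differed from the p0621 arrays by -0.56 to 0.28, with a median size of 0.075. The beta-actin gap was 1.15 ± 0.16 on treated and 1.16 ± 0.04 on saline arrays, and the Gapdh gap 0.03 ± 0.03 and 0.12 ± 0.08.

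**Figure D3:**
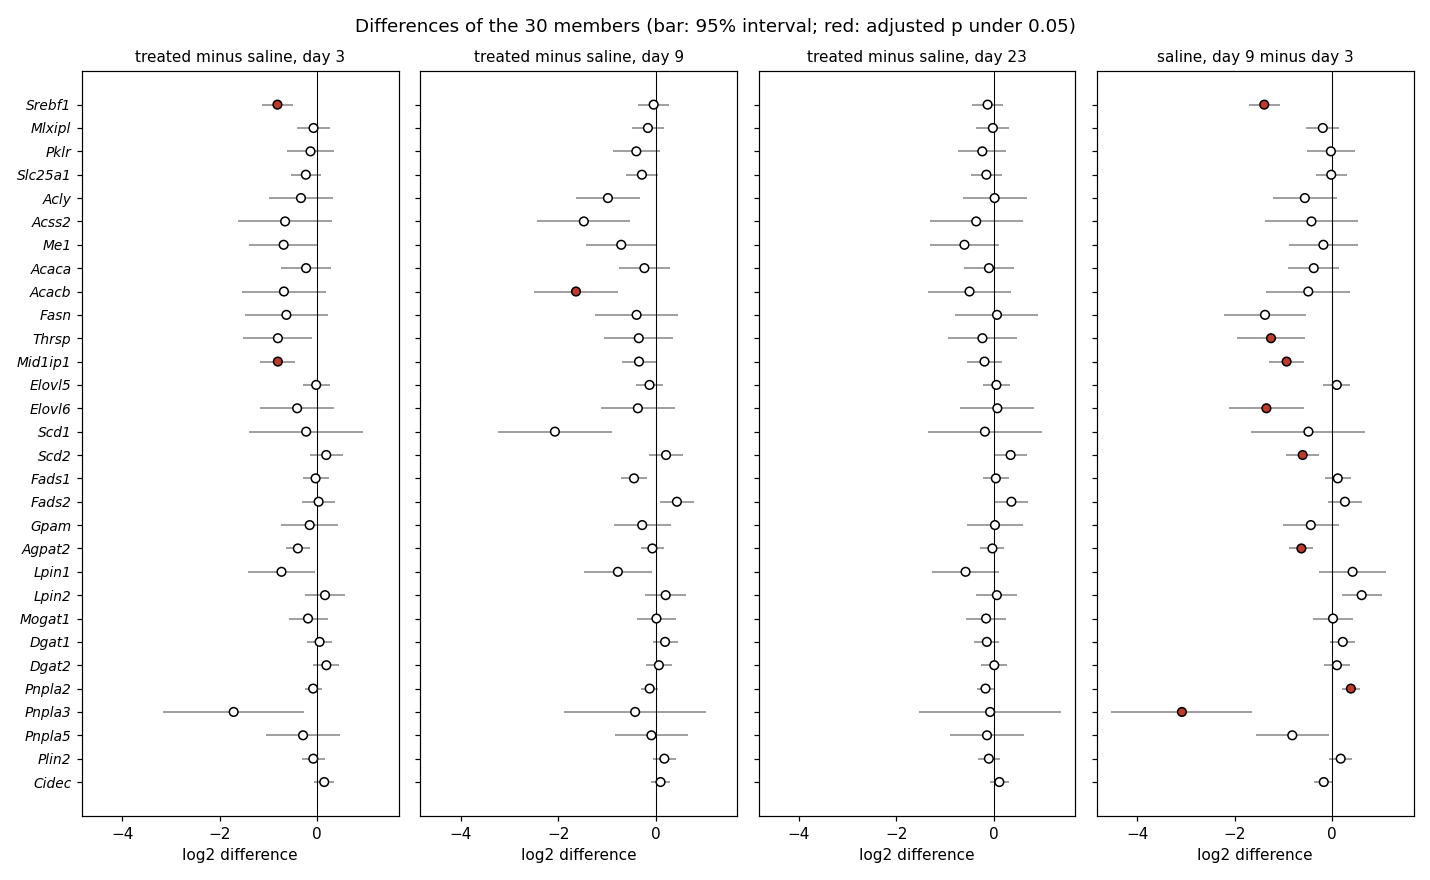
Log2 difference of each of the 30 genes with its 95% interval from limma, in the 3 comparisons of treated with saline mice and in saline mice of day 9 against day 3. Red points passed an adjusted p of 0.05, which were 2, 1, 0 and 8 genes in these panels from left to right.

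In saline mice alone, day 9 against day 3 asks how much of the program shifts without the drug. Here 7 of the 30 genes fell and 1 rose, where 3.12% of all genes were called lower and 2.76% higher. The median was -0.287 against 0.013, and 9 were lower (8.84% of all genes) and 2 higher (9.14%) at an unadjusted p under 0.05. In 12 genes the mice of day 9 lay wholly below those of day 3 (10.4% of all genes), and in Lpin2 and Pnpla2 wholly above (11.4%). This comparison shares its day 3 mice with the drug comparison of day 3 and its day 9 mice with that of day 9, so the values are set side by side and are not independent.

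Pnpla3 had the lowest difference of all 18193 genes between these days. It stood at 8.14, 10.21 and 9.41 on day 3 and at 6.04, 6.65 and 5.82 on day 9, with no overlap. It fell 8.48-fold (log2 -3.08, SE 0.69, adjusted p = 0.0114). The call ended without the saline replicate 2 of day 3 (adjusted p = 0.0568) or the saline replicate 3 of day 9 (adjusted p = 0.0539). Its level in saline mice of day 23, 8.05 ± 1.74 on p0621 arrays, had a wide spread. Its relative Pnpla5 differed by -0.82 (SE 0.36, adjusted p = 0.229).

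Srebf1 stood at 11.95, 12.07 and 11.96 on day 3 and at 10.58, 10.52 and 10.69 on day 9. These tight groups were apart by more than 1, and the gene fell 2.63-fold (log2 -1.40, SE 0.15, adjusted p = 3.34e-05). The drug difference of day 3, -0.82, stands beside this difference, with which it shares the saline mice of day 3. The treated mice of day 3, at 10.82 to 11.42, lay between the saline mice of day 3 and of day 9. Mlxipl differed by -0.20 (SE 0.16).

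Of the 5 chain building genes 2 fell, Thrsp and Mid1ip1. Thrsp fell 2.39-fold (log2 -1.26, SE 0.34, adjusted p = 0.0337), from 13.02 ± 0.19 to 11.76 ± 0.26. Mid1ip1 fell 1.91-fold (log2 -0.94, SE 0.17, adjusted p = 0.00282). Fasn was at 12.23, 12.86 and 11.96 on day 3 and 11.06, 10.71 and 11.14 on day 9, separate groups with a difference of -1.38 that did not pass (SE 0.40, adjusted p = 0.0538). Acaca and Acacb differed by -0.38 and -0.49. The median of the 5 genes against day 3 was -1.03, -0.99 and -0.68 in the 3 mice of day 9.

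Elovl6 fell 2.55-fold (log2 -1.35, SE 0.36, adjusted p = 0.0349) and Scd2 1.52-fold (log2 -0.61, SE 0.16, adjusted p = 0.0338). Scd1 differed by -0.49 (SE 0.56), and Elovl5, Fads1 and Fads2 lay between 0.09 and 0.26. Supply genes did not pass, with Acly at -0.56 and Acss2 at -0.43, and Me1, Pklr and Slc25a1 between -0.18 and -0.02. In assembly Agpat2 fell 1.55-fold (log2 -0.63, SE 0.12, adjusted p = 0.00304), Lpin2 differed by 0.60 (SE 0.20, adjusted p = 0.0881), Lpin1 by 0.42 and Gpam by -0.44. Mogat1, Dgat1 and Dgat2 lay between 0.01 and 0.22.

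Pnpla2, the lipase that starts triglyceride breakdown, was the gene that rose. It was at 7.57, 7.85 and 7.77 on day 3 and 8.01, 8.18 and 8.14 on day 9 (log2 0.38, SE 0.08, adjusted p = 0.0103). The mean of its probe sets differed by 0.15 (adjusted p = 0.428). The second of these lay at 3.83, under the median of all probe sets, and differed by -0.09. The call of Pnpla2 ended without saline replicate 1 of day 3 (adjusted p = 0.0638) or saline replicate 2 of day 9 (adjusted p = 0.0512). Plin2 and Cidec differed by 0.17 and -0.18.

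Srebf1, Mid1ip1 and Agpat2 passed in all 15 other settings of this comparison, Pnpla3 in 13, Pnpla2 in 11, Elovl6 in 8 and Thrsp in 7, and Scd2 in 7 of 14. Leaving out any 1 of the 6 mice left 4 or 5 genes past the test in place of 8. Of all genes it left 608 to 902 in place of 1070. Thrsp and Elovl6 lost their calls in each of those 6 cases, with adjusted p of 0.0505 to 0.128 and 0.054 to 0.151. Scd2 lost its call in all of them other than without saline replicate 1 of day 3, with adjusted p of 0.0515 to 0.155. The mean of each gene's probe sets left 5 genes (1029 of all genes).

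Clock and feeding genes differed between the same saline mice. Of 17 clock genes 5 rose and 6 fell from day 3 to day 9, where 2.76% of all genes rose and 3.12% fell. Dbp, an output gene with a strong daily rhythm, was 37-fold higher (log2 5.21), Nr1d2 9.20-fold higher (log2 3.20) and Cry1 7.01-fold lower (log2 -2.81). Of 12 fasting genes Cyp4a14, Angptl4 and Cpt1a rose (log2 2.98, 0.91 and 0.85) and Pdk4 and Tat fell (log2 -1.82 and -1.09). Of 8 stellate cell markers Pdgfrb fell (log2 -0.59, adjusted p = 0.00717), and 7 lay below zero with a median of -0.436. In 5 of the 8 the mice of day 9 lay wholly below (10.4% of all genes did). Time of death within a day and feeding are not given in the labels, and the part of these shifts in the lipogenic genes was not tested. The beta-actin gap was 0.80 ± 0.05 on day 3 and 0.93 ± 0.06 on day 9, and the Gapdh gap 0.07 ± 0.19 and 0.15 ± 0.16.

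The drug difference was then compared between days gene by gene. None of the 30 genes passed for day 9 minus day 3, day 23 minus day 3 or day 23 minus day 9, where 0.143%, 0.302% and 0.0055% of all genes did. Srebf1 came closest for day 9 minus day 3 (log2 0.78, SE 0.21, adjusted p = 0.172) and for day 23 minus day 3 (0.69, SE 0.21, adjusted p = 0.24). Scd1 differed by -1.84 between days 9 and 3 (SE 0.79, adjusted p = 0.375) and by 1.88 between days 23 and 9 (SE 0.79, adjusted p = 0.515). At an unadjusted p under 0.05 there were 3 genes in each of these contrasts: Srebf1, Scd1 and Fads1 for day 9 minus day 3, Srebf1, Mid1ip1 and Agpat2 for day 23 minus day 3, and Acly, Scd1 and Fads1 for day 23 minus day 9. Of all genes 11.6%, 10.3% and 8.69% were under that p, so 3 of 30 is near the background. A gene that passed on a single day is therefore not shown to differ between days.

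These genes varied more between mice of a group than most. Their median within-group SD was 0.268 against 0.141 for all genes, with 27 of the 30 above the median of all genes, 17 above the 90th percentile and 14 above the 95th. The 30 genes were also brighter, at a median level of 10.42 against 5.88 for all genes. The processing compresses differences of dim probe sets. No set of genes matched by level was compared, so the part of level in the spread was not tested. Pnpla3 had an SD of 0.991 (percentile 99.9), Scd1 0.802 (99.8), Acss2 0.653 (99.5), Acacb 0.582 and Fasn 0.579 (99.3 each). The steadiest were Pnpla2 (0.086), Cidec (0.108) and Plin2 (0.133), all droplet or lipase genes, and Cidec is dim (3.69). The other genes of that role, Pnpla3 and Pnpla5 (0.511, percentile 98.9), were among the most variable. Agpat2 (0.147), Dgat1 (0.155) and Dgat2 (0.161), of triglyceride assembly, lay near the median of all genes.

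**Figure D4:**
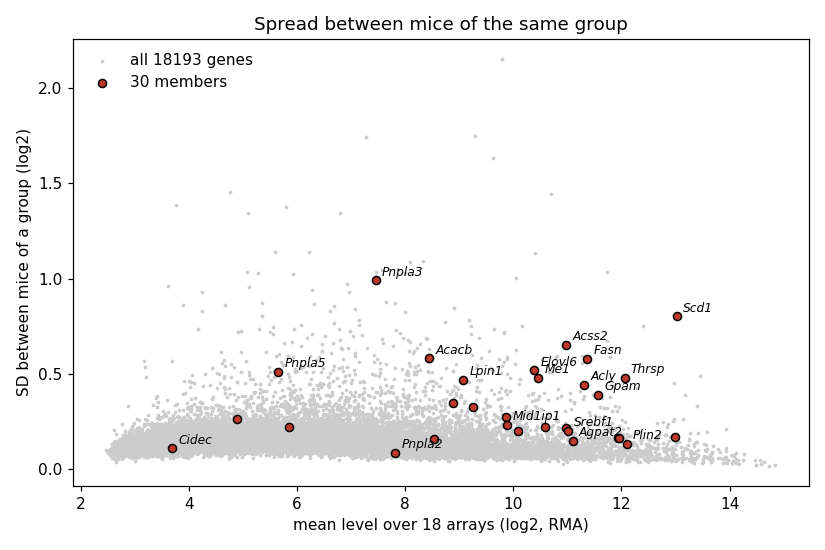
SD between mice of a group (vertical, log2) against mean level over 18 arrays (horizontal, log2, RMA) for all 18193 genes in grey and the 30 genes in red. Pnpla3 (0.991) and Scd1 (0.802) lie far above most genes of their level, and Pnpla2 (0.086) lies low.

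Probe sets of a gene did not always give the same value. The 30 genes had 61 probe sets, with more than 1 for 19 genes and a single one for 11, and adjusted p in this paragraph is over every probe set. The 2 brighter probe sets of Elovl6 were close to each other, at -0.41 and -0.47 on day 3, -0.37 and -0.33 on day 9 and -1.35 and -1.16 in saline mice. The dimmest, at a level of 7.44 against 10.39 for the one used, fell by 1.48 on day 3 (adjusted p = 0.00243) and differed by 0.70 on day 9 (adjusted p = 0.17). In saline mice of day 9 against day 3 it fell by 2.13 (adjusted p = 9.31e-05). A dim Lpin2 probe set, at 3.99, rose by 1.39 on day 9 (adjusted p = 0.00947), where the 3 brighter ones differed by 0.13 to 0.33. A dim Acacb probe set (4.26) differed by -0.16 on day 9, against -1.63 for the probe set used. For Acss2 a nearly as bright probe set (10.84 against 10.98) differed by -1.65 on day 9 (adjusted p = 0.0561), against -1.47 for the probe set used. A dim Acss2 probe set (5.58) differed by 0.10 on that day. The other Me1 probe set differed by -0.07 on day 3. For Scd1 both probe sets were lower on day 9, by -2.07 and -2. A second bright probe set of Thrsp, at 11.67, differed by -1.03 on day 3 and 0.03 on day 9, and a dimmer one, at 6.15, by -0.05 on day 3.

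The wider pathway was counted from a list of 66 further genes, of which 59 were measured and 7 are not analysed here. On day 3, 5 of the 59 fell and 0 rose, where 1.88% of all genes were called lower and 2.63% higher. On day 9, 0 fell (0.896% of all genes) and 1 rose (1.91%). On day 23, 0 fell (0.198% of all genes) and 0 rose (0.187%) by limma. At an unadjusted p under 0.05 on day 23, 5 were higher (5.88% of all genes) and 8 lower (7.99%). On day 3 the genes that fell were Mlx, the partner of ChREBP (log2 -0.53, adjusted p = 0.0196), the acyltransferase Gpat4 (-0.41), the glycolytic kinase Pfkl (-0.39), and the droplet genes Hilpda (-0.44) and Bscl2 (-0.32). On day 9 the nuclear receptor partner Rxra rose (log2 0.52, adjusted p = 0.0331). Their median differences were -0.025, -0.021 and -0.045, near those of all genes.

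In saline mice of day 9 against day 3, 3 of the 59 rose (2.76% of all genes) and 4 fell (3.12%). The insulin receptor Insr (log2 0.44), the coactivator Ppargc1b (0.88) and the fatty acid transporter Cd36 (1.57) rose. Mlx (-0.51), the acyl-CoA synthetase Acsl3 (-1.13), the lipase inhibitor G0s2 (-1.40) and the droplet protein Plin5 (-0.81) fell. Of 9 measured cholesterol synthesis genes, 0 passed in any of the 4 comparisons by limma, and at most 1 had an unadjusted p under 0.05. Their medians were -0.474, -0.261 and 0.041 on days 3, 9 and 23 and -0.316 in saline mice. All 9 lay below zero on days 3 and 9, 4 on day 23 and 7 in saline mice.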

How the data were processed

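Liver RNA of 18 mice in 6 groups of 3 was measured on 21 arrays, 3 mice being measured in both array sets. Deposited values are log2 levels of probe sets, which the authors obtained by RMA per the submitters' processing notes. That method corrects background, equalizes the arrays' distributions and summarizes probes, and it compresses differences of dim probe sets. Its version, and the arrays that went into one normalization, are not given here. Array medians lay from 4.75 to 4.82.

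Of 45101 probe sets, 34945 had 1 gene symbol in the platform annotation, 932 had several, 9160 had none and 64 were controls. Each gene is its single-symbol probe set of highest mean on the 18 arrays tested. Over all 21 arrays the same probe set is chosen for all 30 genes and another one for 60 of the 18193. Group means were fitted with limma (lmFit and eBayes; 12 residual and 4.85 prior degrees of freedom) on 18 arrays with a shared spread. Tests were two-sided with Benjamini-Hochberg adjustment over 18193 genes and a threshold of 0.05. The p-values measure the spread between these mice. SEs and intervals come from that fit, SDs from 3 mice.

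The 30 genes and the other lists were chosen with earlier results of these data known. All 30 genes are named. Of each other list up to 3 genes past the threshold are named by size of change, or all where 5 or fewer passed. The exception is the cholangiocyte marker of day 3, which is only counted. Second probe sets were picked after their values were seen. Mouse numbers recur between groups and were taken as different animals. Deviations of same-numbered replicates correlated at -0.15 to 0.08, so the numbers were not taken as pairs. Alternatives were each comparison's 6 arrays alone, quantile normalization, median centring, filters on level, the mean of probe sets, a test of every probe set, an intensity trend, a replicate block, the other array set, all 21 arrays, and leaving out each mouse. Promoters came from RefSeq (GRCm38.p6), where 25 of the 30 genes had an entry. The limma fit was tested on simulated data with known changes, for the day 3 comparison of treated with saline mice only. Tests used limma 3.58.1 in R 4.3.3 with the data.table package (1.17.8); figures were drawn with matplotlib 3.10.9 under Python 3.11.15.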

Additional observations from a re-analysis of the deposited data

Results flagged for a closer look

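In 3 of the 30 genes every treated mouse lay on one side of the saline mean on day 9 and every treated mouse on the other side on day 23, which is 10% of them against 8.51% of all genes. With the p0617 arrays of the same treated mice it was 2 of the 30 (6.67%, against 6.28% of all genes), and Dgat1, at 8.60, 8.71 and 8.74 against a saline mean of 8.66, no longer lay on one side. Elovl6, an elongase, differed by -0.365 on day 9 and by 0.069 on day 23. Dgat1, the last acyltransferase of triglyceride synthesis, differed by 0.193 and -0.147. Plin2, a droplet coat protein, differed by 0.178 and -0.105. The limma test of the change from day 9 to day 23 passed for none of them: 0.43 (SE 0.51, adjusted p = 0.86) for Elovl6, -0.34 (SE 0.17, adjusted p = 0.601) for Dgat1 and -0.28 (SE 0.15, adjusted p = 0.618) for Plin2.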

How the results depend on the processing

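No called difference of the 30 genes changed direction under another setting. On day 3 Srebf1 passed in all 15 other settings (adjusted p = 0.00251 to 0.0391) and Mid1ip1 in 12 (0.00653 to 0.0648), and on day 9 Acacb passed in 6 of 15 (0.0244 to 0.175). Agpat2, at adjusted p = 0.0624 on day 3, passed in 5 settings (range 0.0304 to 0.219). Fitting each comparison on its own 6 arrays left 1 of the 30 on day 3, and on day 9 called Lpin1 (adjusted p = 0.0252) in place of Acacb. On day 9, 2 genes passed above the median level and 3 above the 75th percentile, but 0 by limma with every probe set or with the replicate block (8 and 7 at an unadjusted p under 0.05). Among all genes tested these settings gave 629, 736, 377 and 433 calls in that order. Leaving out each mouse gave 1 to 6 genes on day 3, 0 to 3 on day 9 and 4 to 5 in saline mice of day 9 against day 3, where the mean of probe sets gave 5.

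Over all genes, own arrays gave 253 calls in place of 821 on day 3, 132 in place of 511 on day 9, 693 in place of 1070 in saline mice and 0 in place of 70 on day 23 by limma (2372 at an unadjusted p under 0.05). Leaving out each mouse gave 435 to 876, 176 to 390, 608 to 902 and 3 to 72 in the same order. On day 23 quantile normalization gave 139, median centring 43, the median level 214, the 75th percentile 389, every probe set 29, the intensity trend 210, the replicate block 13, the p0617 arrays 179 and all 21 arrays 137. The replicate block changed no other call of the 30 genes. The causes were not tested. No setting moved the median of all genes past -0.047 in size. Low signal limits Cidec, the one gene under the median of all probe sets.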

Other observations

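Treated mice of day 23 were read on an array of each set, which gave a repeat of the 30 genes in the same animals. The largest gap between repeats was -0.56, for Fads2 in mouse 36. Fads2 stood at 11.25, 11.07 and 11.08 on the p0617 arrays and at 10.69, 11.02 and 11.11 on the p0621 arrays, so mice 37 and 38 gave nearly the same level again. The median size of the gaps, 0.075, stands beside a median SD of 0.268 between mice of a group.

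Of 6 measured fat cell markers Retn, a hormone gene, was lower in treated liver on day 9 (log2 -0.47, adjusted p = 0.0464), at 4.58 against 5.05. Of 4 measured markers of pancreas acinar cells 0 passed by limma in any comparison, with Prss2 at an unadjusted p of 0.00797 on day 9 (log2 -0.25). Cela1 of that list was bright in every liver (9.87 to 10.91), while Cpa1 was dim (3.75 to 4.21). Of 7 markers of sinusoidal endothelium Clec4g was higher in treated liver on days 3 and 9 (log2 0.60 and 0.48, adjusted p = 0.00622 and 0.0364), and no other passed.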
